A study of Homo sapiens with 13 samples.

Results

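DDIT4 and 9 other genes that set or carry the activity of the kinase mTOR were followed in the established human colon cancer line SW480 after 6 h with iron chelators. The 10 genes are DDIT4 and its relative DDIT4L, the sestrins SESN2 and SESN3, the tuberous sclerosis genes TSC1 and TSC2, the GTPase gene RHEB, and DEPTOR, MTOR and RPTOR. They were taken by symbol out of 18404 genes, and all 10 were measured. The arrays were of the Affymetrix type Human Gene 1.0 ST and carry probes along each transcript. Where a symbol had several transcript clusters, as the array's gene-level features are called, the one with the highest mean was kept. DDIT4 was chosen by its measured difference from the solvent control in these same data, so its differences from that control are given as a description, with no test. The other 9 were listed for their place in the pathway.

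The 13 arrays fell into 4 groups, and all cells were of the same unmodified line. Of these, 4 came from cells in 0.1% of the solvent DMSO, 4 from cells in DFO (deferoxamine) at 100 mM, 3 from cells in Deferasirox at 50 mM and 2 from cells in OICR623, a compound known here by its code name alone, at 10 mM. These doses are as the labels give them; they differ between compounds, and the labels do not settle whether another unit was meant. The replicates are described as independent experiments on a single cell line. The p-values speak for the spread left between them once the levels of the array medians, described below, are taken off. With the levels left in, that spread was wider, as for SESN3 under DFO (SE 0.33 against 0.094). Because RNA was taken from whole cultures, a change per cell and a change in which cells are present cannot be told apart.

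mTOR is a kinase that promotes protein synthesis and cell growth and holds back autophagy when growth factors, amino acids, energy and oxygen are plentiful. The complex of TSC1 and TSC2 switches off RHEB, which is the direct activator of mTOR at the lysosome. DDIT4, also called REDD1, acts through that complex to lower mTOR activity, and its transcription is known to be driven by hypoxia-inducible factor (HIF) and by stress-responsive factors. HIF is degraded after hydroxylation by iron-dependent enzymes, which is why iron chelators are used to stabilise it.

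The 250 bases before the start of DDIT4 are shown because that gene had by far the highest response of the 10, and those of its relative DDIT4L and of SESN3, which passed the test under DFO and Deferasirox, stand beside it for comparison. The sequences are those of RefSeq (GRCh38.p14), on the strand of the gene, 5′ to 3′, and capitals mark ACGTG or GCGTG, the core that HIF reads, searched on both strands. The windows are chr10:72273674-72273923 (+) for DDIT4, chr4:100190469-100190718 (-) for DDIT4L and chr11:95232476-95232725 (-) for SESN3.
DDIT4: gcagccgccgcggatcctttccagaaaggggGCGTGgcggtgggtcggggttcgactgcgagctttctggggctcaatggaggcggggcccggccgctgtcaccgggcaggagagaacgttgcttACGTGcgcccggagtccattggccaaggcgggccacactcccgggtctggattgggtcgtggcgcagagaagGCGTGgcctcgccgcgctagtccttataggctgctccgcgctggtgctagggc
DDIT4L: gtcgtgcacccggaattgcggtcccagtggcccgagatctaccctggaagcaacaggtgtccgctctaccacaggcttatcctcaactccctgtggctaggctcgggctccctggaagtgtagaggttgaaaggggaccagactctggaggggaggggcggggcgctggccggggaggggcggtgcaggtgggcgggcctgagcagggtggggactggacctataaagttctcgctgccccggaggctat
SESN3: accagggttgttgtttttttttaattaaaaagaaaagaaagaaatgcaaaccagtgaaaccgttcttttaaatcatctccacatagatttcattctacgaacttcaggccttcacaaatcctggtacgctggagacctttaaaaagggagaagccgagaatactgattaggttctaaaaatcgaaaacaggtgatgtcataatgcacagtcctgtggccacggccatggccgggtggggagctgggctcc
The DDIT4 window held 3 matches, GCGTG at 219 and at 53 bases before the start and ACGTG at 125 bases before it, all on the strand shown. Of 35116 promoter windows of the same length, 43.2% held at least 1 match and 7.8% held 3 or more. DEPTOR was left out of this search, and of the other 9 genes 5 held a match. DDIT4L, SESN2, SESN3 and TSC1 had 0, MTOR and RHEB 1 each, and RPTOR 2. In its upstream window (chr16:2047735-2047984), TSC2 also had 2. They are the same bases read on both strands, since its CACGTG is a palindrome. CACGTG was found in 6.3% of windows. That window alone among those of the 9 genes held TGATGNAA, the core of the element read by ATF4 with its partners. It overlaps the CACGTG, and 3.1% of windows held it. A further TSC2 window (chr16:2047952-2048201) held none of these motifs. The TSC1 window (chr9:132944617-132944866, minus strand) lies inside the RefSeq gene, which ends at 132945378. A match is only a run of letters, and no binding was measured here.

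The array medians formed 3 separate levels, and these touch every value below. DMSO 1 and DFO 1 formed a high level with median log2 signals of 7.17 to 7.19, DMSO 4, DFO 4 and Deferasirox 3 a low level at 6.52 to 6.55, and the other 8 arrays, with both of OICR623, a middle level at 6.64 to 6.69. The fit therefore had the level as a block. Each group had 2 arrays in the middle level, so groups there can easily lie apart by chance. The share of all genes that do so was not counted. DMSO 1 and DFO 1 also held exactly the same value for 5535 of the 18404 genes (30.1%), whereas no other pair of arrays shared more than 37 (0.201%). Whether DMSO 1 and DFO 1 are independent of each other was not tested. The spread across genes of DFO minus DMSO of the same number was 0.142 in the high level, 0.197 in the middle level and 0.209 in the low level. Among the 10 genes, RHEB had the same value on both arrays of the high level, and results are also given without that level. Of 9 measured colon epithelium markers, EPCAM, KRT8, KRT18 and CDX2 lay above the array median on all arrays, and CDH1, KRT20 and CDH17 below it. CDX2, a transcription factor of the intestinal epithelium, fell by 0.49 under DFO and by 0.77 under Deferasirox (adjusted p = 0.0063 and 0.00068, limma) and differed by -0.44 under OICR623 (adjusted p = 0.13, limma). None of the other 8 was called under any compound, and the part of CDX2 in the results was not tested. All 4 endothelial and all 4 measured leukocyte markers lay below the median on every array, as did DCN among 5 fibroblast markers, of which COL1A1 lay above it.

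**Figure D1:**
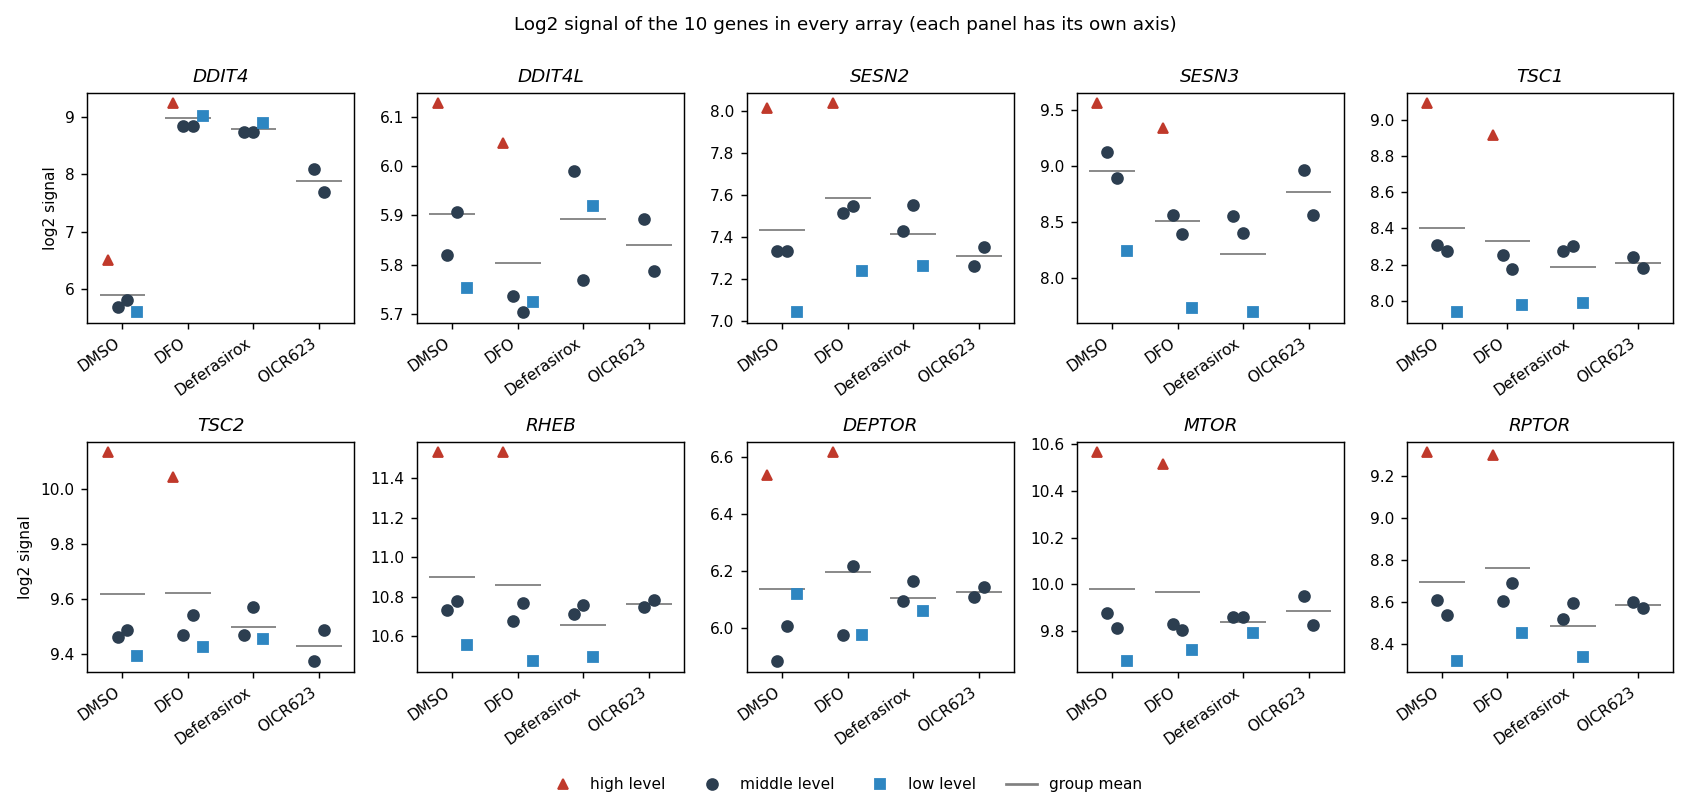
Log2 signal of each of the 10 genes (vertical axes, 1 scale per panel) on each array by group, with the level of the array median shown by colour and shape and the group mean by a line. DDIT4 is the panel in which all treated arrays stand above all DMSO arrays; in most other panels the 2 arrays of the high level stand apart instead.

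DDIT4 was far higher after each of the 3 compounds, and least so after OICR623. Its log2 signal (transcript cluster 7928308) was 6.51, 5.69, 5.82 and 5.60 on DMSO arrays 1 to 4. On the DFO arrays it was 9.24, 8.84, 8.84 and 9.00, on the Deferasirox arrays 8.73, 8.74 and 8.90, and on the OICR623 arrays 8.09 and 7.68. All treated arrays lay above all DMSO arrays, and both OICR623 arrays lay below all arrays of the other 2 compounds. With the level as a block, the difference from DMSO was 3.08 on the log2 scale for DFO (SE 0.11), which is 8.44-fold. It was 3.03 for Deferasirox (SE 0.12), or 8.17-fold, and 2.14 for OICR623 (SE 0.14), or 4.42-fold. The 3 comparisons share the 4 DMSO arrays.

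The size of the DDIT4 difference varied with the level. DFO minus DMSO was 2.73 in the high level, 3.09 in the middle level and 3.41 in the low level. Deferasirox minus DMSO was 2.98 in the middle level and 3.30 in the low level, and OICR623 minus DMSO was 2.13 in the middle level, where both its arrays lie. The smallest of these DFO values came from the pair of arrays that share many identical values, in which DMSO 1 was also the highest DMSO array for DDIT4. Without the high level the differences were 3.19 for DFO, 3.09 for Deferasirox and 2.20 for OICR623.

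**Figure D2:**
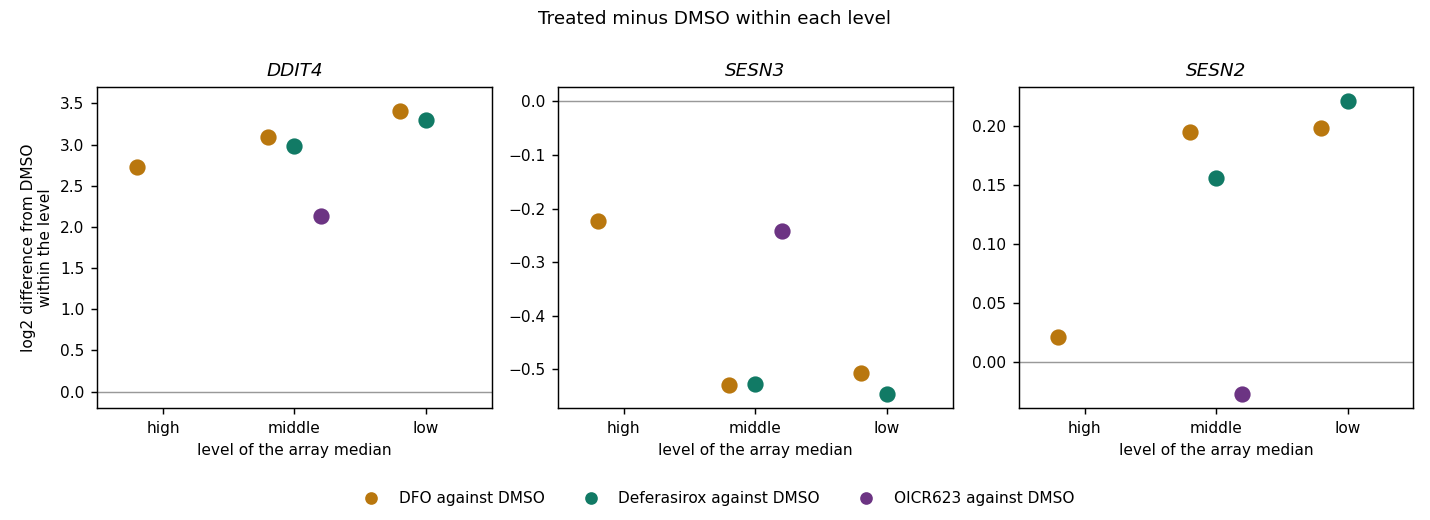
Log2 difference of treated from DMSO arrays within each level of the array median (horizontal axis) for DDIT4, SESN3 and SESN2, 1 point per compound and level; a point of the high or low level is 1 array minus 1 array and a point of the middle level a difference of means of 2. DDIT4 lies between 2.13 and 3.41 and SESN3 between -0.54 and -0.22 throughout, and SESN2 lies near 0 for DFO in the high level (0.02) and for OICR623 (-0.03).

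Between the compounds, DDIT4 was lower after OICR623 than after DFO, at doses that differ. The difference was -0.93 (SE 0.14, 95% interval -1.24 to -0.63), or 1.91-fold lower. Its adjusted p over all genes was 0.028 (limma), in a comparison where 0.168% of the 18404 genes were called. DDIT4 was chosen with these treated arrays in view, so this p is not independent of that choice and serves as a description. Against Deferasirox the difference was -0.89 (interval -1.20 to -0.57; adjusted p = 0.060, limma), which misses the threshold of 0.05; 0.0869% of genes were called in that comparison. Deferasirox and DFO differed by -0.05 (interval -0.31 to 0.21, adjusted p = 0.94, limma), so ratios from 0.808-fold to 1.16-fold lie within the interval. In that comparison 0.0435% of genes were called.

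The direction of the OICR623 differences held in all 27 alternative settings, from -1.18 to -0.73 against DFO and from -1.09 to -0.68 against Deferasirox, but the calls did not. Since DDIT4 was chosen from these arrays, its calls describe the fits and are no independent test. The call against DFO was kept in 13 of the 27. It was lost with no block (adjusted p = 1.00), with a replicate block (limma adjusted p = 0.32, and 0.21 with the level block added) with the DFO and OICR623 arrays alone (limma, 0.23) and after quantile normalization (limma, 0.12 with or without the level block). It was also lost on leaving out DMSO 2 (0.057), DMSO 3 (0.060), DFO 2 (0.12), DFO 3 (0.12), DFO 4 (0.058), Deferasirox 1 (0.065), Deferasirox 2 (0.057) or OICR623 2 (0.28), as adjusted p from limma. The call against Deferasirox was gained in 7 of 27 settings, among them those leaving out DMSO 1 or DFO 1 (adjusted p = 0.031, limma) or DMSO 4 (0.044). Leaving out DMSO 1 or DFO 1 leaves the other alone in its level, so both give the fit without the high level. Tallies of settings, here and for SESN3, thus count the same fit more than once.

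DDIT4L, the relative of DDIT4 that also restrains mTOR, did not pass the test in any comparison. It lay below the array median on every array, and with no detection calls, whether it was expressed is not known. Its log2 signal (8101952) was 6.13, 5.82, 5.91 and 5.75 on the DMSO arrays, 6.05, 5.74, 5.70 and 5.72 on the DFO arrays, 5.99, 5.77 and 5.92 on the Deferasirox arrays and 5.89 and 5.79 on the OICR623 arrays. All 4 groups overlap over all arrays; in the middle level both DFO arrays lie below both arrays of each other group. The differences from DMSO were -0.10 for DFO, 0.07 for Deferasirox and 0.01 for OICR623, and the lowest adjusted p was 0.44 (limma). The 3 intervals together span -0.22 to 0.20.

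Sestrins are stress-induced proteins that restrain mTOR through the amino acid sensors at the lysosome. SESN3, known as a target of FOXO factors, fell after DFO and after Deferasirox. It was 9.56, 9.12, 8.89 and 8.24 on the DMSO arrays and 9.34, 8.56, 8.40 and 7.73 on the DFO arrays (transcript cluster 7951077). On the Deferasirox arrays it was 8.56, 8.40 and 7.70, and on the OICR623 arrays 8.97 and 8.57. Over all arrays the groups overlap with DMSO, and the signal spreads widely with the level. Within the middle level the DFO and Deferasirox arrays all lie below both DMSO arrays, and the OICR623 arrays overlap with DMSO.

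The difference of SESN3 from DMSO was -0.45 for DFO (SE 0.094, interval -0.65 to -0.24, adjusted p = 0.020, limma), or 1.36-fold lower. For Deferasirox it was -0.50 (SE 0.10, interval -0.73 to -0.26, adjusted p = 0.019, limma), or 1.41-fold lower. For OICR623 it was -0.20 (SE 0.12, interval -0.47 to 0.06, adjusted p = 0.62, limma) and not called. Counting the 9 genes other than DDIT4, SESN3 was the 1 called under DFO, where 4.6% of all genes were called (2.72% lower), and the 1 called under Deferasirox, where 5.84% were (3% lower). None of the 9 was called under OICR623, none of them at an unadjusted p under 0.05 either, and 0.734% of all genes were called there.

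Within levels, SESN3 under DFO differed from DMSO by -0.22, -0.53 and -0.51 in the high, middle and low level, and under Deferasirox by -0.53 and -0.54 in the middle and low level. Without the high level it differed by -0.52 for DFO (adjusted p = 0.020, limma) and -0.53 for Deferasirox (adjusted p = 0.016, limma). The sign was negative in all alternatives for both compounds, and the call held in 19 of 28 for DFO and 19 of 27 for Deferasirox. Under DFO it was lost with no block, with a replicate block over all arrays (adjusted p = 0.45, limma; 0.019 with that block on the DFO and DMSO arrays alone), in the middle level alone (0.17), with arrays centred on their medians, with quantile normalization and no block, and on leaving out DMSO 2 (0.065), DMSO 4 (0.088), DFO 3 (0.070) or DFO 4 (0.080). Under Deferasirox it was lost with no block, in the middle level alone (0.16), with median-centred arrays (0.74), with quantile normalization and no block (0.58), and on leaving out DMSO 2 (0.063), DMSO 4 (0.084), Deferasirox 2 (0.081) or Deferasirox 3 (0.095), again as limma's adjusted p. OICR623 and Deferasirox differed by 0.29 in SESN3, with both OICR623 arrays above all 3 of Deferasirox (adjusted p = 0.55, limma), and OICR623 and DFO by 0.24 (adjusted p = 0.90, limma).

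SESN2, a target of p53, ATF4 and NRF2 in other settings, did not pass the test. Its log2 signal (7899436) was 8.01, 7.33, 7.33 and 7.04 on the DMSO arrays, 8.04, 7.51, 7.55 and 7.24 on the DFO arrays, 7.43, 7.55 and 7.26 on the Deferasirox arrays and 7.26 and 7.35 on the OICR623 arrays. The groups overlap over all arrays; in the middle level all DFO and Deferasirox arrays lie above both DMSO arrays. The difference from DMSO was 0.15 for DFO (interval 0.05 to 0.25, adjusted p = 0.11, limma), 0.16 for Deferasirox (interval 0.04 to 0.27, adjusted p = 0.12, limma) and -0.04 for OICR623 (adjusted p = 0.89, limma). In the high level, DFO minus DMSO was 0.02, against 0.20 in both other levels. Without that level the DFO difference was 0.20 (adjusted p = 0.059, limma). SESN1, the remaining sestrin, differed from DMSO by -0.01, -0.04 and -0.10 after DFO, Deferasirox and OICR623 and was not called. Both OICR623 arrays (6.56 and 6.55) lay below the lowest DMSO array (6.59), and the other groups overlap with DMSO.

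**Figure D3:**
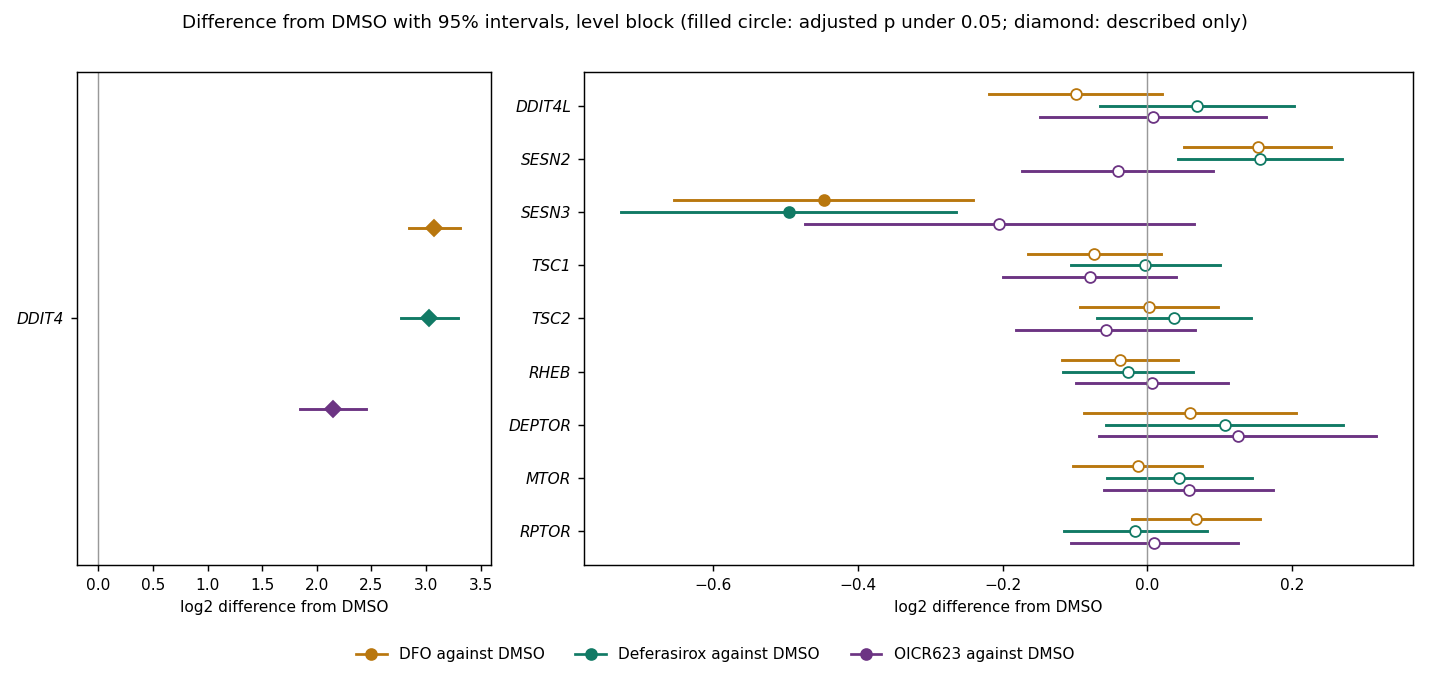
Log2 difference from DMSO (horizontal axes, with different scales in the 2 panels) for the 10 genes under each compound, level-blocked and with 95% intervals; filled circles passed an adjusted p of 0.05, and DDIT4 is drawn with diamonds because it is described only. SESN3 under DFO (-0.45) and Deferasirox (-0.50) are the filled circles, and the other circles lie between -0.20 and 0.16.

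The genes at the core of the pathway stayed close to their DMSO signal. These are MTOR, the kinase, RPTOR, the scaffold that defines its first complex, TSC1 and TSC2, the brake, and RHEB, the activator. Their 15 differences from DMSO, 5 genes by 3 compounds, lay between -0.08 and 0.07 on the log2 scale. The 95% intervals ran from -0.20 to 0.17 at their ends, which is from 0.871-fold to 1.13-fold, and the lowest adjusted p was 0.46 (limma). Changes smaller than these bounds are not settled by 13 arrays. In the middle level the DFO and OICR623 arrays of TSC1 all lay below both DMSO arrays, which with 2 arrays per group does not show a change. MTOR, RPTOR, TSC2 and RHEB overlapped with DMSO there under every compound.

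In these genes the level outweighed the treatment. TSC2 (7992474) was 10.13 and 10.04 on the 2 arrays of the high level, DMSO 1 and DFO 1, and between 9.37 and 9.57 on the other 11. MTOR (7912412) was 10.57 and 10.52 on those 2 arrays and between 9.67 and 9.95 elsewhere. TSC1 (8164781) was 9.09 and 8.91 there and between 7.94 and 8.31 elsewhere, and RPTOR (8010512) was 9.32 and 9.30 against 8.32 to 8.69. With no block, the median difference of all 18404 genes was -0.15 for Deferasirox and -0.11 for OICR623, groups with no array in the high level, against 0.00 with the block. DEPTOR (8148059), an inhibitor bound to mTOR, was 6.54 and 6.62 on the arrays of the high level and between 5.88 and 6.22 elsewhere. Like DDIT4L, DEPTOR lay below the array median on every array, and whether it was expressed is not known. It differed from DMSO by 0.06, 0.11 and 0.12 after DFO, Deferasirox and OICR623. The lowest adjusted p was 0.53 (limma) and the interval ends were -0.09 and 0.32. In the middle level its Deferasirox and OICR623 arrays all lay above both DMSO arrays.

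RHEB needs a caution on what was measured. It had 2 transcript clusters, and the one kept by its higher mean (7927285, mean 10.81) is numbered among features of chromosome 10: all 20 of its named neighbours in number lie there. RHEB lies on chromosome 7, and RefSeq lists the pseudogenes RHEBP1 and RHEBP2 on chromosome 10. The other cluster (8143957, mean 10.49) has 19 of 20 neighbours on chromosome 7. The kept cluster differed from DMSO by -0.04, -0.03 and 0.01 after DFO, Deferasirox and OICR623, and the other one by 0.00, -0.04 and 0.02. Neither was called, and both held identical values on DMSO 1 and DFO 1 (11.53 and 11.27).

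The wider pathway was followed in 80 measured genes of 91 listed by role, among them the partners of mTOR, upstream brakes, the growth factor side, amino acid sensors, substrates, lysosomal genes driven by TFEB, and transcription factors known to act on DDIT4. Under DFO 6 of the 80 rose and 2 fell, which is 10% against 4.6% of all genes (1.89% higher and 2.72% lower). Under Deferasirox 7 rose and 3 fell, 12.5% against 5.84% (2.83% higher and 3% lower). Under OICR623 none was called by limma. At an unadjusted p under 0.05 (limma) stood 28, 23 and 17 of the 80 under DFO, Deferasirox and OICR623. The share of all genes at that threshold was not counted for any fit. The median difference of the 80 was -0.02, 0.00 and 0.01, against 0.00 over all genes in each comparison. None of the 80 was called for any compound with no block (1, 1 and 0 at an unadjusted p under 0.05), where 0.245%, 0.234% and 0.038% of all genes were called by limma. With a replicate block the DFO count was 0 over all arrays and 4 on the DFO and DMSO arrays alone. In that last fit NR3C1, RRAGD, ITFG2 and PRKAB2 were called (adjusted p from 0.030 to 0.042, limma), and PRR5L, CEBPB, IRS2 and INSR were not (0.066, 0.092, 0.11 and 0.12). With the replicate and level blocks together PRR5L was called (adjusted p = 0.047, limma) and RRAGD was not (0.051). The count was 4 without DMSO 2 or DFO 2, 3 without DMSO 3 or DFO 3 and 2 without DMSO 4 or DFO 4. The Deferasirox count was 6 without DMSO 2, DMSO 3, Deferasirox 2 or Deferasirox 3 and 5 without DMSO 4.

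On the growth factor side, 2 of 9 measured genes rose under DFO, where 4.6% of all genes were called. Under Deferasirox 3 rose and 1 fell, where 5.84% of all genes were called. None of the 9 was called with no block. INSR, the insulin receptor gene, rose by 0.32 under DFO (SE 0.077, adjusted p = 0.040, limma; 0.12 with paired DFO and DMSO arrays alone) and by 0.39 under Deferasirox (SE 0.086, adjusted p = 0.023, limma). It was 8.39, 7.44, 7.45 and 7.54 on the DMSO arrays, 8.48, 7.73, 7.73 and 8.15 on the DFO arrays, 7.73, 7.88 and 8.08 on the Deferasirox arrays and 7.78 and 7.57 on the OICR623 arrays. IRS2, the adaptor that couples that receptor to PI3-kinase, rose by 0.22 under DFO (adjusted p = 0.046, limma; 0.11 paired in the same way) and by 0.42 under Deferasirox (adjusted p = 0.0017, limma). Its DMSO values were 9.06, 8.65, 8.59 and 8.33, those of DFO 9.10, 8.88, 8.94 and 8.57, and those of Deferasirox 8.99, 9.12 and 8.82. For both genes the groups overlap over all arrays, and in the middle level every treated array lies above both DMSO arrays. IGF1R, the receptor of insulin-like growth factors, rose by 0.27 under Deferasirox (adjusted p = 0.027, limma) and differed by 0.19 under DFO (adjusted p = 0.096, limma). PIK3R1, the regulatory subunit of PI3-kinase, fell by 0.19 under Deferasirox and differed by -0.08 under DFO.

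Among 7 measured partners of mTOR, PRR5L, a partner of its second complex, rose by 0.21 under DFO (adjusted p = 0.028, limma; 0.066 with paired DFO and DMSO arrays alone) and by 0.36 under Deferasirox (adjusted p = 0.0022, limma). Its lowest and highest values were 8.60 and 9.66 on the DMSO arrays and 8.95 and 9.11 on the Deferasirox arrays. RICTOR, which defines that second complex, differed by 0.17, 0.20 and 0.24 under DFO, Deferasirox and OICR623 with adjusted p of 0.14, 0.093 and 0.23 (limma). MLST8, shared by both complexes, differed by -0.04, -0.03 and -0.04, and AKT1S1, the inhibitor PRAS40, by -0.06, -0.05 and -0.09. Neither was called. Of all genes 4.6% were called under DFO and 5.84% under Deferasirox.

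Of 10 measured upstream brakes, PRKAB2, a subunit of the energy sensor AMPK, fell by 0.20 under DFO and by 0.24 under Deferasirox (adjusted p = 0.012 and 0.0064, limma). GRB10, which restrains insulin signalling, rose by 0.21 under Deferasirox and differed by 0.05 under DFO. TBC1D7, the third subunit of the TSC complex, was not analysed here. Of 23 measured genes of amino acid sensing, RRAGD, a Rag GTPase that recruits mTOR to the lysosome, rose by 0.18 and 0.21 under DFO and Deferasirox. ITFG2, part of the KICSTOR scaffold, fell by 0.18 and 0.25 (adjusted p = 0.010 and 0.0030, limma). The shares of all genes called were 4.6% under DFO and 5.84% under Deferasirox.

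None of the 12 measured kinase substrates downstream was called under DFO, Deferasirox or OICR623 (limma; 3, 3 and 2 at an unadjusted p under 0.05). EIF4EBP1, the repressor of translation that mTOR phosphorylates, differed by 0.14, 0.16 and 0.14, and RPS6KB1, the S6 kinase gene, by -0.07, 0.00 and 0.09. None of the 11 genes driven by TFEB, the factor that mTOR keeps out of the nucleus, was called either (limma; 4, 2 and 2 at an unadjusted p under 0.05). Of all genes 4.6%, 5.84% and 0.734% were called under the 3 compounds, and the share at an unadjusted p under 0.05 was not counted. All these values are levels of RNA, and the phosphorylation through which mTOR acts was not measured.

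Of 8 measured transcription factors known to act on DDIT4, NR3C1 and CEBPB rose under DFO and NR3C1 rose under Deferasirox. The shares of all genes called there were 4.6% and 5.84%. NR3C1, the glucocorticoid receptor, was 7.55, 7.51, 7.23 and 7.17 on the DMSO arrays and 7.81, 7.83, 7.85 and 7.74 on the DFO arrays. It was 7.73, 7.84 and 7.76 on the Deferasirox arrays and 7.80 and 7.57 on the OICR623 arrays, so every treated array lay above every DMSO array. It rose by 0.44 under DFO (SE 0.076, adjusted p = 0.0065, limma) and by 0.44 under Deferasirox (adjusted p = 0.011, limma), and differed by 0.32 under OICR623 (adjusted p = 0.24, limma). CEBPB, a partner of ATF4, rose by 0.21 under DFO (adjusted p = 0.027, limma; 0.092 with paired DFO and DMSO arrays alone) and differed by 0.19 under Deferasirox (adjusted p = 0.059, limma). The genes HIF1A, EPAS1 and ATF4, whose proteins are controlled largely after transcription, were not called; HIF1A differed by -0.07, 0.00 and -0.03 and ATF4 by -0.10, -0.03 and -0.02. EPAS1 differed by 0.10, 0.09 and 0.09 (adjusted p = 0.18, 0.27 and 0.51, limma), and in the middle level every treated array lay above both DMSO arrays.

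**Figure D4:**
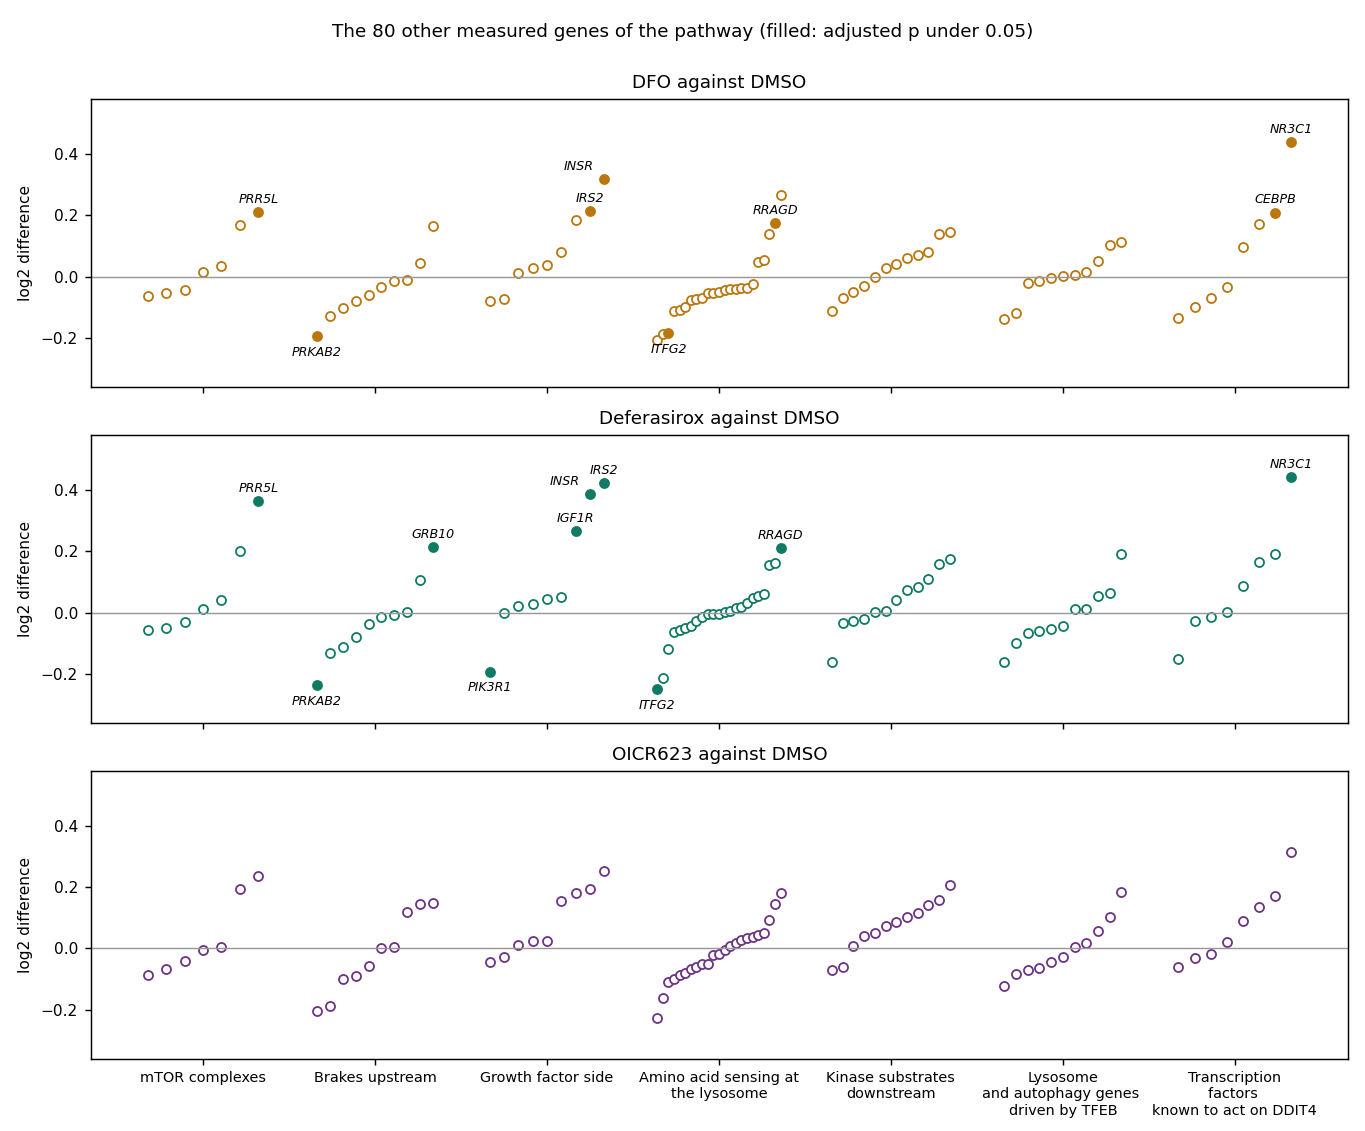
Log2 difference from DMSO (vertical axis) of the 80 other measured genes of the pathway, sorted within 7 groups by role (horizontal axis), 1 panel per compound, level-blocked. Filled points passed an adjusted p of 0.05 and are named: 8 under DFO, 10 under Deferasirox and 0 under OICR623, none beyond 0.44 in size.

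The genes with a pattern most like that of DDIT4 were found by the Pearson correlation over the 13 arrays after the mean of each level was taken off, among 18403 genes. This is a description, since the 13 arrays share their 4 groups and DDIT4 was chosen for its contrast with DMSO. The 8 highest were KDM3A (0.993), MOB3A (0.992), ADM (0.991), ITGA5 (0.990), CCNE2 (0.989), VEGFA (0.989), CHST15 (0.987) and P4HA1 (0.987). KDM3A encodes a histone demethylase, ADM the vasodilator peptide adrenomedullin, ITGA5 an integrin subunit, CCNE2 cyclin E2, VEGFA an angiogenic factor, CHST15 a sulfotransferase and P4HA1 a collagen prolyl hydroxylase. Their differences from DMSO were smaller than those of DDIT4, from 0.80 (P4HA1) to 2.15 (ADM) under DFO against 3.08.

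The 3 lowest correlations were those of BAMBI (-0.989), a decoy receptor of the TGF-beta family, and the histone genes H3C1 (-0.987) and H2AX (-0.986). BAMBI differed from DMSO by -1.02, -1.10 and -0.84 and H3C1 by -2.12, -2.08 and -1.28 after DFO, Deferasirox and OICR623. H2AX differed by -0.23, -0.24 and -0.17, much less than the other 2. Among the other 9 genes of the set, SESN2 had a correlation of 0.71 with DDIT4 and SESN3 of -0.85, at places 909 and 17983 of the 18403. DDIT4L, at -0.14, and MTOR, at 0.16, lay far from both ends.

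**Figure D5:**
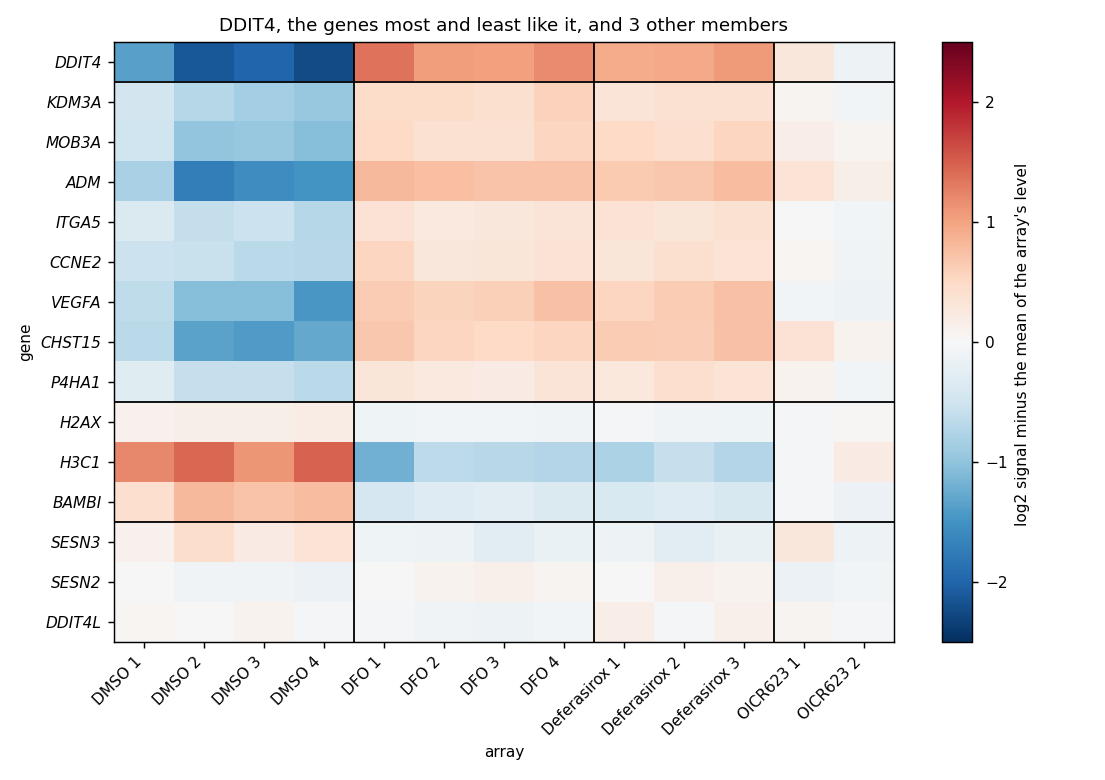
Log2 signal minus the mean of the array's level (colour) for DDIT4, the 8 genes most like it, the 3 least like it and 3 other genes of the set (rows), on the 13 arrays (columns, by group). The 8 genes run from below 0 (blue) on the DMSO arrays to above 0 (red) on the DFO and Deferasirox arrays, with the OICR623 arrays between. The red is pale for several of them, such as P4HA1 (0.21 to 0.42 on the DFO and Deferasirox arrays). DDIT4L lies between -0.12 and 0.17 throughout.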

How the data were processed

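Per array, the authors deposited 1 value for each transcript cluster, on a log2 scale as its range (1.24 to 14.92) shows. The submitters' processing notes name GCRMA and limma but no version, order or role. The authors' genome build is not given in the sources used here. Of 32321 clusters, 19158 were named by 1 symbol, 1388 by several and 11775 by none. Of the 19158, 19128 were matched to RefSeq genes (GRCh38.p14) and the rest kept the symbol of the array. With 1 cluster kept per symbol, 18404 genes were left, 637 of them with several clusters. No filter on dim genes was applied, and the files carry no detection calls.

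Groups were compared with limma 3.58.1 (R 4.3.3, statmod 1.5.0), with group means and the level of the array median (split where neighbouring medians lie over 0.05 apart) as a fixed block over all 13 arrays, 7 residual degrees of freedom before moderation, and Benjamini-Hochberg adjustment over all genes. Calls are at an adjusted p under 0.05, and intervals cover 95%. The method was tested on simulated data. The genes, gene lists and level block were chosen with earlier results of these data known. Other genes named are those called, at most 4 per role, some fixed by name, and the 8 most and 3 least like DDIT4. The number of arrays limits the precision.

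Same-numbered DMSO and DFO arrays deviated from their group means with correlations of 0.945, 0.662, 0.738 and 0.789 across genes, so these numbers were taken as pairs, though such arrays also share a level and the labels state no pairing. The reported fit has no pairing; a block of replicate numbers enters as an alternative. For other pairs of groups the correlations of same-numbered arrays lay between -0.32 and 0.33. Some of these arrays lie in different levels, such as DMSO 3 (middle) and Deferasirox 3 (low), so the numbers may not mark pairs there. A replicate block over all arrays joins them all the same. Calls lost with that block therefore do not settle what pairing would do. Alternatives were other blocks, normalizations, filters and each array left out; fits without the high level, with every cluster kept and with a replicate block on DFO and DMSO alone were chosen after seeing the data.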

Additional observations from a re-analysis of the deposited data

Results flagged for a closer look

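Of 20 groups of 4 arrays examined (10 genes in DMSO and in DFO), 3 held an array far from the other 3 by Dixon's test; chance flags about 1 in 20 independent groups, and these are not independent, since they share the same 8 arrays and the level was not taken off. DDIT4L was 6.05 on DFO 1, with the nearest DFO array at 5.74. TSC2 was 10.13 on DMSO 1, with the nearest DMSO array at 9.49. MTOR was 10.52 on DFO 1, with the nearest DFO array at 9.83. Both arrays are those of the high level of the array median, which also hold identical values for 30.1% of genes. What sets them apart was not tested.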

How the results depend on the processing

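DDIT4 stayed above DMSO in every alternative, by 2.97 to 3.19 in 28 for DFO, by 2.84 to 3.09 in 27 for Deferasirox and by 1.90 to 2.35 in 27 for OICR623. SESN3 was the 1 of the 9 genes other than DDIT4 called under DFO and under Deferasirox. DDIT4 was past the threshold through its choice, which is no result of a test; with it in the count, the 2 of 10 became 1 with no block, in the middle level alone, with arrays centred on their medians and with quantile normalization and no block, and 1 to 2 with 1 array left out. With a replicate block that DFO count was 1, and it was 2 with the level added to that block or with DFO and DMSO alone. For OICR623 against DFO (main count 1) it was 0 with no block, a replicate block with or without the level, the 2 groups alone and quantile normalization with or without the level block, and 0 to 1 with 1 array left out. OICR623 against Deferasirox (main count 0) gave 1 with the level as a random block, without the dimmest genes, with a mean-variance trend and without the high level, and 0 to 1 with 1 array left out. These counts between compounds also rest on DDIT4, chosen from these same arrays. The wider list under DFO (8 called) gave 0 with no block, a replicate block, the middle level, median-centred arrays and quantile normalization with no block. It gave 4 with the replicate and level blocks, the 2 groups alone or a replicate block on DFO and DMSO alone, 13 with a trend, and 2 to 8 with 1 array left out, the lowest without DMSO 4 or DFO 4. Under Deferasirox (10 called) it gave 0 with no block, a replicate block, or quantile normalization with no block, 1 with both blocks or median-centred arrays, 2 in the middle level, 17 with a trend, and 5 to 12 with 1 array left out, the lowest without DMSO 4. Under OICR623 (0 called) it gave 1 with a trend. With no block and no other normalization, the shift between levels stays in the spread, and settings with fewer arrays have fewer degrees of freedom. Why calls changed was not tested. No call changed sign in any setting. Leaving out an OICR623 array leaves that group with 1, assumed to vary like the other groups.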
